A study of Mus musculus with 6 samples.

Results

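Collagens are the main proteins of the extracellular matrix. Each collagen molecule is a triple helix of 3 alpha chains, and each chain is the product of its own gene, so a type can be built from identical chains or from several different ones. Fibrillar collagens assemble into the fibrils that give tendon, skin and scar their strength, type 4 forms the meshwork of basement membranes, type 6 forms beaded microfibrils around cells, and the remaining types bind to fibril surfaces, anchor epithelia or form other networks. Fibroblast-like stromal cells are the main source of fibrillar collagen in fat and other soft tissues.

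The chains were read from messenger RNA of mouse cells labelled ADSCs in 6 libraries. The labels do not spell the abbreviation out, which usually stands for stem cells derived from adipose tissue. All 6 carry the genotype label WT. The treatment label of 3 is Scrambled, a control for the knockdown, and in the other 3 Ifit1, which encodes an interferon-induced RNA-binding protein, was knocked down (sh-Ifit1, a short hairpin RNA by its name). Each of 3 labelled batches holds 1 library of either kind. Nothing in the labels states that these are independent cultures or animals, or whether the cells are 1 clone, so a p-value measures only the spread between these 6 libraries, which may be technical. The authors' table gives levels in FPKM, fragment numbers scaled to gene length and to sequencing depth, so levels can be compared between genes.

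Of 19877 genes in the table, 41 are protein-coding genes with a collagen chain symbol. By type number, 11 are fibrillar (types 1, 2, 3, 5, 11, 24 and 27), 5 are chains of type 4, 6 are chains of type 6 and 19 belong to other types. A gene was tested if any 3 or more libraries showed it at 1 FPKM or above, and 18 of the 41 chains met this. The tested chains held between 388 and 300413 fragments in a library, out of 32.2 to 40.6 M recovered per library.

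Ifit1 was lower in the knockdown libraries. It stood at 4.90, 3.75 and 4.97 FPKM in scrambled libraries 1, 2 and 3 and at 1.76, 1.48 and 1.51 FPKM in knockdown libraries 1, 2 and 3 (log2 fold change −1.27 ± 0.11 SE, limma adjusted p = 5.71e-05). As a check of the cell label, 7 of 8 stromal markers were abundant enough to test, and their summed level was 1579 to 1749 FPKM in scrambled and 1970.5 to 2088 FPKM in knockdown libraries, most of it from Vim. Of these 7 tested markers, Pdgfra, Pdgfrb, Thy1, Eng and Ly6a were lower and only Cd44 and Vim higher in knockdown libraries. Adipocyte markers summed to 4.42 to 5.43 FPKM in scrambled and 3.66 to 4.86 FPKM in knockdown libraries, mostly Pparg, which did not pass (limma adjusted p = 0.123). Schwann and neural markers summed to at most 0.469 FPKM in any library. Endothelial markers summed to at most 0.104 FPKM in any library, and 4 of 5 leukocyte and macrophage markers had a mean under 1 FPKM, with Ptprc listed at 0 in every scrambled library. Smooth muscle and pericyte markers summed to 2.96 to 3.44 FPKM in scrambled and 0.627 to 0.819 FPKM in knockdown libraries, nearly all of it Notch3, while Myh11, Des and Rgs5 had group means of at most 0.188 FPKM. Epithelial and mesothelial markers summed to 17.9 to 25.6 FPKM in scrambled and 13.2 to 17.9 FPKM in knockdown libraries, mostly Msln. Their part in the collagen results was not tested. In such bulk samples, fewer cells of a type and less RNA per cell cannot be told apart.

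Collagen chains were mostly lower after Ifit1 knockdown. Of the 18 tested chains 14 fell, 1 rose and 3 did not pass (limma, Benjamini-Hochberg adjusted p under 0.05 over all 10311 tested genes). Of all tested genes, 51.0% were called by the same rule, 31.1% lower and 19.8% higher. That split depends on the scaling: 38.9% of the called genes were higher here, 27.6% after rescaling to TPM and 56.7% after median centring, while the chain counts were 14 lower and 1 higher in each. The median log2 fold change was −0.60 over the 18 chains and −0.05 over all tested genes. All 7 tested fibrillar chains and all 3 tested type 6 chains fell, whereas 1 of 3 type 4 chains and 3 of 5 chains of other types did. Col5a3 and Col3a1 fell at least 2-fold, which 1.09% of all tested genes did. Col11a1 fell 2.16-fold by its group means and by 0.96 on the log2(FPKM + 0.5) scale, where the pseudocount of 0.5 makes the difference; with a pseudocount of 0.1 its log2 fold change was −1.07. A fall of 0.5 or more on the log2 scale was called for 10 of the 18 chains and for 6.72% of all tested genes. Among genes with a mean of at least 5 FPKM, 11 of 15 chains and 27.6% of all genes were called lower.

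**Figure D1:**
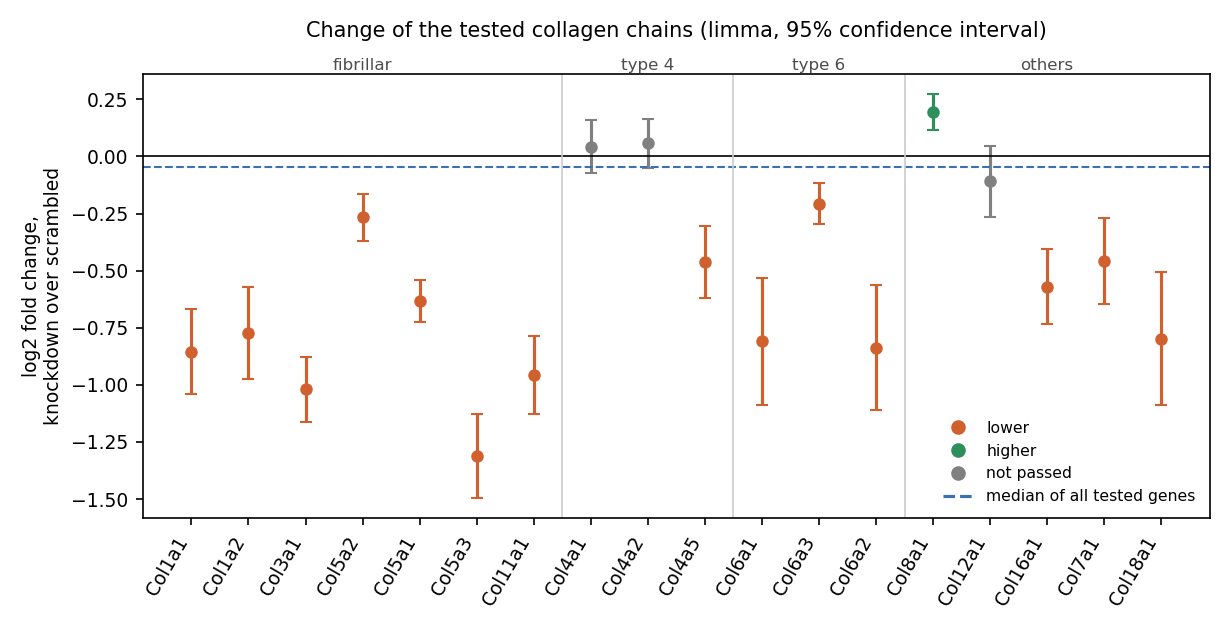
Log2 fold change of knockdown over scrambled libraries (y axis) for the 18 tested collagen chains (x axis, by class and then by level). Points are limma estimates, bars are 95% confidence intervals, the colour gives the call, and the dashed line is the median of all tested genes at −0.05. The 14 chains that fell lie between −1.31 and −0.21, Col8a1 is the only one called higher, and the intervals of Col4a1, Col4a2 and Col12a1 include 0.

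The groups of libraries did not overlap for any of the 15 called chains, 14 with all knockdown libraries below and 1 with all above. Among all tested genes the knockdown libraries lay wholly below in 37.3% and wholly above in 23.8%. Each of the 14 chains that fell had a negative difference in each of the 3 batches, which follows from the lack of overlap and adds no support. Of these 14, 9 were higher in knockdown library 3 than in knockdown libraries 1 and 2, a share not counted over all tested genes. For these 9 chains that library lay nearer to the scrambled ones, whereas Col5a2, Col6a3 and Col7a1 were lowest in it. The 14 lower calls were made without that library as well, and then Col4a1 and Col4a2 were called higher beside Col8a1.

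The chains of type I collagen, the main fibril protein of skin, bone and scar, were the most abundant and fell to under 0.6 of their scrambled level. Col1a1 (chromosome 11, positions 94936224 to 94953042 of GRCm38, plus strand) stood at 1155, 1173 and 1333 FPKM in scrambled libraries 1, 2 and 3 and at 596, 681 and 751 FPKM in knockdown libraries 1, 2 and 3. Col1a2 (chromosome 6, positions 4504814 to 4541544, plus strand) stood at 1000.1, 1021 and 1161 FPKM and at 540.3, 624 and 702 FPKM. The highest knockdown library was far below the lowest scrambled one for both chains. Col1a1 fell to 0.554 of its scrambled mean (log2 fold change −0.86 ± 0.08 SE, limma adjusted p = 9.42e-05) and Col1a2 to 0.587 (−0.77 ± 0.09, limma adjusted p = 0.000215). Among all genes of the table with a mean over 100 FPKM, the summed level in knockdown libraries was 1.06 times that in scrambled ones.

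Col3a1 encodes the single chain of type III collagen, which forms fibrils together with type I in distensible tissues. It lies on chromosome 1, positions 45311538 to 45349706, plus strand. Its level was 198, 200.1 and 215 FPKM in scrambled and 91.0, 101 and 109.8 FPKM in knockdown libraries 1, 2 and 3. It was the third most abundant chain in the scrambled group and the fifth in the knockdown group, behind Col5a2 and Col4a1. The log2 difference was −1.12, −0.98 and −0.96 within batches 1, 2 and 3, and the pooled value was −1.02 ± 0.06 SE (limma adjusted p = 2.1e-05).

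The chains of type V, a minor collagen that sits inside type I fibrils and limits their width, changed by very different amounts. Col5a3 stood at 16.5, 17.5 and 13.9 FPKM in scrambled and 5.87, 6.50 and 5.95 FPKM in knockdown libraries. Its scrambled mean was 2.61 times its knockdown mean (log2 fold change −1.31 ± 0.08 SE, limma adjusted p = 2.1e-05), the largest fall among the 18 tested chains. Col5a1, the chain present in nearly all type V molecules, stood at 86.3, 87.2 and 88.2 FPKM and at 53.0, 59.3 and 55.9 FPKM (−0.63 ± 0.04, limma adjusted p = 2.15e-05). Its scrambled libraries lay within 2 FPKM of each other. Col5a2, the second chain of the common heterotrimer, stood at 185, 187 and 206 FPKM and at 163, 164 and 153 FPKM, and fell by only 0.27 ± 0.05 on the log2 scale (limma adjusted p = 0.00152). Within batches its difference was −0.18, −0.19 and −0.43, with batch 3 the largest.

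Type XI collagen is the counterpart of type V in cartilage fibrils, and Col11a1 can also combine with type V chains outside cartilage. Col11a1 stood at 4.39, 4.56 and 5.30 FPKM in scrambled and 2.19, 2.16 and 2.25 FPKM in knockdown libraries. The knockdown libraries were close together, and the log2 fold change was −0.96 ± 0.08 SE (limma adjusted p = 4.36e-05).

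**Figure D2:**
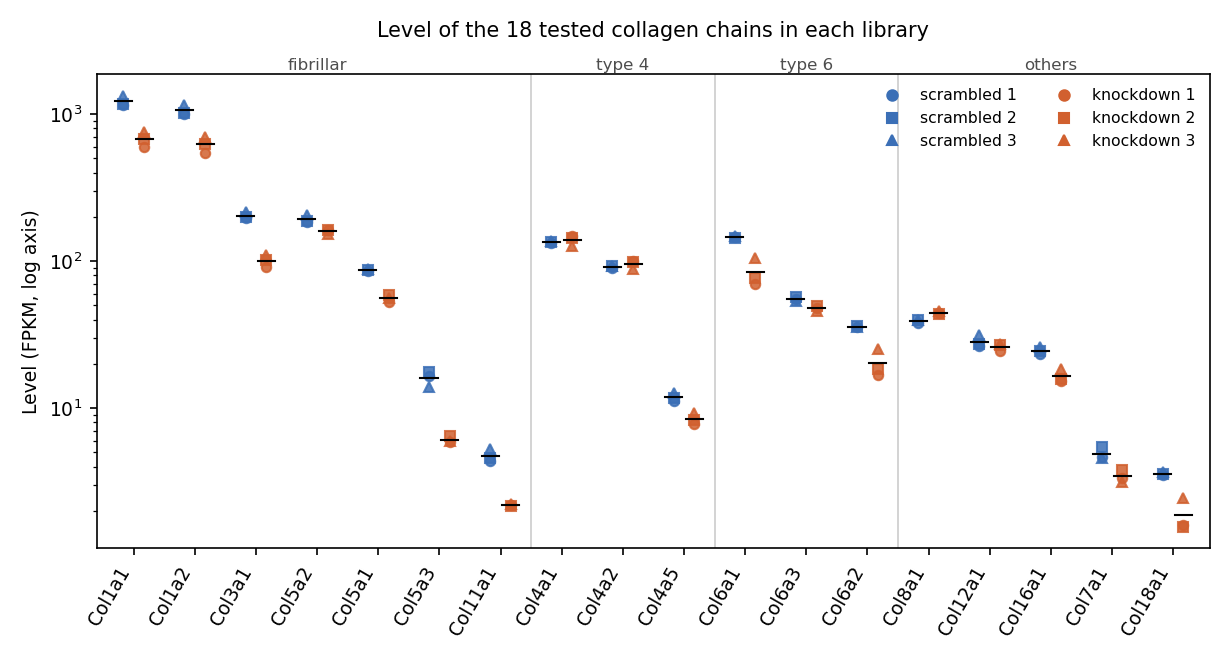
Level in FPKM (y axis, log scale) of the 18 tested collagen chains (x axis, by class) in each of the 6 libraries. Colour gives the group, the symbol gives the batch, and a black line is the group mean. Col1a1 and Col1a2 lie highest in both groups, the fibrillar groups do not overlap, and the Col4a1 and Col4a2 groups do.

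The sequence just before the transcription start is shown for 4 fibrillar genes that fell and for Col8a1, the tested chain that rose, to let their upstream regions be compared. Each line holds the 150 bases before the RefSeq start on GRCm38.p6, written 5′ to 3′ on the strand of the gene, and these windows hold no exon of GENCODE M21. Capitals mark matches on either strand to the TATA box (TATAAA), to the NF-Y motif (CCAAT) and to the GC box bound by SP1 (GGGCGG), and neighbouring GC boxes were allowed to overlap.
Col3a1 chr1:45311388-45311537, plus strand: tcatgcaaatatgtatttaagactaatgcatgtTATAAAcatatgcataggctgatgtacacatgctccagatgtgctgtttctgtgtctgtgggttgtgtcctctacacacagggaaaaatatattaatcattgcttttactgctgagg
Col5a1 chr2:27886275-27886424, plus strand: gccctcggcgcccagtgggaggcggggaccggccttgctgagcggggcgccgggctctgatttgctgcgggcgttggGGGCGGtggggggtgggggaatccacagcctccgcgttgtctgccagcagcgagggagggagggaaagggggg
Col5a3 chr9:20815068-20815217, minus strand: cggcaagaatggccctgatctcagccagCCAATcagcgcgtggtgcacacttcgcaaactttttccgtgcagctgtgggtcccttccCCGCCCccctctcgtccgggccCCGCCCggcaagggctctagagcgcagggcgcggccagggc
Col11a1 chr3:114030390-114030539, plus strand: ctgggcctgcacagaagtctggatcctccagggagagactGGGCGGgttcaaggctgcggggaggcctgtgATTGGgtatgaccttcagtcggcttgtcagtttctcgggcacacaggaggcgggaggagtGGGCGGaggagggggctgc
Col8a1 chr16:57754738-57754887, minus strand: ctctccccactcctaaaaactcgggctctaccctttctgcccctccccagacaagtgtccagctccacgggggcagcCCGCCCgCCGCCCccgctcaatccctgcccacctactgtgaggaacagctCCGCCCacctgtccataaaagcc

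The 5 windows did not share 1 motif. The Col3a1 window holds TATAAA, with its first base 117 bases before the start, and neither of the other motifs. Whether this match works as a TATA box was not tested. Col5a3 and Col11a1 hold both a CCAAT match and GC boxes, and Col5a1 and Col8a1 hold GC boxes alone. Of 17 windows of tested collagen chains (15 genes matched), 1 holds TATAAA, 6 hold CCAAT and 9 hold GGGCGG. Unlike the 5 windows shown, some of the 17 overlap annotated exons, so these counts are not of promoter sequence alone. Among those with CCAAT, the Col4a1 and Col4a2 windows hold 150 exonic bases each, Col1a2 125 and Col16a1 85. Exon overlap was not counted over the windows of all tested genes. Over the windows of all tested genes the shares were 3.1%, 27.7% and 54.3%. Over all 32851 windows they were 7.6%, 24.5% and 28.6%.

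The main basement membrane chains were among the few collagens that did not fall. Col4a1 and Col4a2 encode the ubiquitous heterotrimer of type IV collagen and start head to head on chromosome 8, where their annotated ends overlap by 22 bases. Col4a1 stood at 134, 136 and 137 FPKM in scrambled and 148, 144 and 127 FPKM in knockdown libraries 1, 2 and 3. Col4a2 stood at 89.6, 93.0 and 92.8 FPKM and at 99.7, 99.0 and 88.3 FPKM. For both genes knockdown libraries 1 and 2 lay above every scrambled library and knockdown library 3 lay below every one. The log2 fold change was 0.04 for Col4a1 (95% interval −0.07 to 0.16, limma adjusted p = 0.501) and 0.06 for Col4a2 (−0.05 to 0.16, limma adjusted p = 0.331). Without knockdown library 3 both were called higher, by 0.11 (limma adjusted p = 0.0137 and 0.0142). The sign of Col4a1 turned after rescaling to TPM, after quantile normalization and with the level and length trend removed.

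The X-linked type IV chains fell. Col4a5, a chain of specialised basement membranes whose loss causes Alport syndrome, stood at 11.1, 11.7 and 12.8 FPKM in scrambled and 7.84, 8.35 and 9.26 FPKM in knockdown libraries (log2 fold change −0.46 ± 0.07 SE, limma adjusted p = 0.000794). Its within-batch differences of −0.48, −0.46 and −0.44 were close to each other. Col4a6, its partner in smooth muscle and skin, starts 1308 bases away on the opposite strand of the X chromosome. It was too low for the main test, with 131, 82 and 107 fragments in scrambled and 24, 14 and 40 in knockdown libraries. Its group means were 0.404 ± 0.0753 and 0.102 ± 0.0414 FPKM (SD, n = 3 each).

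The 3 common chains of type VI collagen fell together in direction and not in size. Col6a1 stood at 146, 143 and 148 FPKM in scrambled and 70.2, 76.8 and 105 FPKM in knockdown libraries 1, 2 and 3. Col6a2 stood at 35.9, 36.2 and 35.4 FPKM and at 16.9, 18.4 and 25.2 FPKM. In both, knockdown library 3 was nearer to the scrambled libraries than the others were, and the spread over knockdown libraries (SD 18.7 and 4.44 FPKM) was far above that over scrambled ones (SD 2.39 and 0.396 FPKM). The log2 fold change was −0.81 ± 0.12 SE for Col6a1 (limma adjusted p = 0.000814) and −0.84 ± 0.12 for Col6a2 (limma adjusted p = 0.00063). Within batches 1, 2 and 3 Col6a1 differed by −1.05, −0.89 and −0.49 and Col6a2 by −1.07, −0.96 and −0.48. Col6a3, which carries the largest chain and joins Col6a1 and Col6a2 chains in the standard type VI molecule, stood at 55.1, 57.2 and 53.7 FPKM and at 47.9, 49.9 and 46.0 FPKM (−0.21 ± 0.04, limma adjusted p = 0.00252). Col6a1 and Col6a2 are neighbours 85.2 kb apart on chromosome 10, whereas Col6a3 lies on chromosome 1.

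Among the other types, Col18a1, Col16a1 and Col7a1 fell, Col8a1 rose and Col12a1 did not pass. Col18a1, whose C-terminal part is released as endostatin, stood at 3.50, 3.56 and 3.67 FPKM in scrambled and 1.62, 1.56 and 2.45 FPKM in knockdown libraries (log2 fold change −0.80 ± 0.13 SE, limma adjusted p = 0.00111). Knockdown library 3 again lay above the rest of its group. Col16a1, a fibril-associated chain, stood at 23.2, 24.6 and 26.2 FPKM and at 15.2, 15.8 and 18.5 FPKM (−0.57 ± 0.07, limma adjusted p = 0.000345). Col7a1, the anchoring fibril of skin, stood at 4.66, 5.44 and 4.61 FPKM and at 3.37, 3.78 and 3.15 FPKM (−0.46 ± 0.08, limma adjusted p = 0.00203). These 3 genes had lower values in each batch, which follows from groups that do not overlap. Col8a1, a short-chain network collagen of vessel walls and of the membrane behind the cornea, stood at 38.0, 39.5 and 39.6 FPKM and at 44.6, 43.5 and 46.1 FPKM, a small rise (0.19 ± 0.03, limma adjusted p = 0.00186). Col12a1, a fibril-associated chain of tendon and fascia, stood at 26.3, 27.2 and 31.5 FPKM and at 24.6, 26.8 and 27.3 FPKM, with overlapping groups (−0.11, 95% interval −0.26 to 0.05, limma adjusted p = 0.207).

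The summed level of all 41 chains was lower in every knockdown library than in any scrambled one. It was 3215, 3269.6 and 3610.0 FPKM in scrambled and 1934, 2128 and 2281 FPKM in knockdown libraries 1, 2 and 3, and the knockdown mean was 0.628 of the scrambled mean. The log2 difference was −0.67, with an exact two-sided permutation p = 0.1, the smallest that 3 libraries against 3 can give. Collagen chains took 2.00 ± 0.124% of all recovered fragments in scrambled and 1.29 ± 0.0945% in knockdown libraries (SD, n = 3 each). The 95% Wilson interval of a single library reached at most 0.00463 percentage points to either side. The sum is led by type I: without Col1a1 and Col1a2 it was 1084 ± 28.7 FPKM in scrambled and 816 ± 16.3 FPKM in knockdown libraries, a ratio of 0.753.

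The fibrillar share of the collagen transcripts was smaller, and the shares of type 4 and of the other types larger, in every knockdown library. These shares were not tested. Fibrillar chains made up 82.8 ± 0.831% of the summed collagen FPKM in scrambled and 76.7 ± 1.49% in knockdown libraries. Type 4 chains made up 7.13 ± 0.359% and 11.6 ± 1.68%, while their own sum was 239 ± 4.14 and 244 ± 16.5 FPKM (exact permutation p = 0.7). The type 4 share was 13.2%, 11.8% and 9.87% in knockdown libraries 1, 2 and 3, all above the highest scrambled library at 7.37%. Type 6 had a like share, at 7.06 ± 0.430% and 7.18 ± 0.493%, with a sum that went from 237 ± 0.257 to 152 ± 21.7 FPKM. Shares within 1 sum are tied to each other, so a smaller fibrillar share brings larger shares elsewhere.

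**Figure D3:**
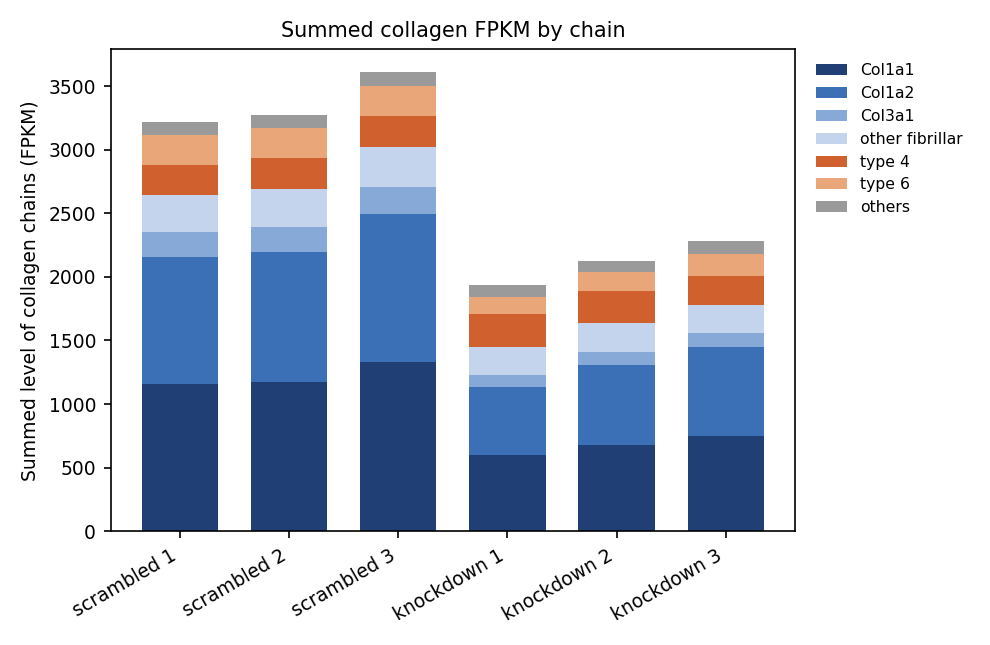
Summed FPKM of the 41 collagen chains (y axis, from 0) in each library (x axis), stacked by chain or class. The knockdown bars reach 1934 to 2281 FPKM and the scrambled bars 3215 to 3610.0 FPKM, and the difference lies mostly in the Col1a1 and Col1a2 segments while the type 4 segment has a like height in all bars.

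Ratios between chains of 1 library do not depend on the scaling between libraries, and 9 pairs were compared. For each, the exact two-sided permutation p cannot go below 0.1, and the adjusted value over the 9 pairs cannot go below 0.1 either, so none could pass this test. The ratio of Col5a2 to Col3a1, which lie 24.6 kb apart on chromosome 1, was 0.936, 0.932 and 0.959 in scrambled and 1.79, 1.62 and 1.39 in knockdown libraries (p = 0.1, adjusted to 0.15, exact permutation). The knockdown libraries all lay above. The ratio of Col5a3 to Col5a1 was 0.191, 0.201 and 0.158 and then 0.111, 0.110 and 0.106, with all knockdown libraries below. The ratio of Col6a3 to Col6a1 was 0.378, 0.400 and 0.364 and then 0.682, 0.649 and 0.436, so knockdown library 3 lay closest to the scrambled libraries.

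The ratio of the 2 chains of type I differed little between the groups. Col1a1 to Col1a2 was 1.15, 1.15 and 1.15 in scrambled and 1.10, 1.09 and 1.07 in knockdown libraries, without overlap (p = 0.1 by exact permutation). Col3a1 to Col1a1 was 0.168 ± 0.00585 in scrambled and 0.149 ± 0.00328 in knockdown libraries (SD, n = 3 each), also without overlap. Col4a5 to Col4a1 went from 0.0877 ± 0.00516 to 0.0612 ± 0.0103.

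The smallest ratio differences of the 9 pairs were those of Col4a2 to Col4a1 and of Col6a2 to Col6a1, which are neighbours on their chromosomes. Col5a2 and Col3a1 are neighbours too, 24.6 kb apart, and their ratio had the largest difference of the 9 pairs (0.76 on the log2 scale). Any part of gene position was not tested. Col4a2 to Col4a1 was 0.678 ± 0.00672 in scrambled and 0.685 ± 0.00987 in knockdown libraries, with overlapping groups (exact permutation p = 0.4). Col6a2 to Col6a1 was 0.246 ± 0.00675 and 0.240 ± 0.000865, with overlapping groups (exact permutation p = 0.2). The groups also overlapped for Col5a1 to Col1a1, at 0.0718 ± 0.00488 and 0.0836 ± 0.00789 (exact permutation p = 0.2). Within batches 1, 2 and 3 its log2 difference was 0.25, 0.23 and 0.17, so the knockdown library was the higher one in each batch, with a paired exact sign-flip p = 0.25, the smallest that 3 batches can give.

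**Figure D4:**
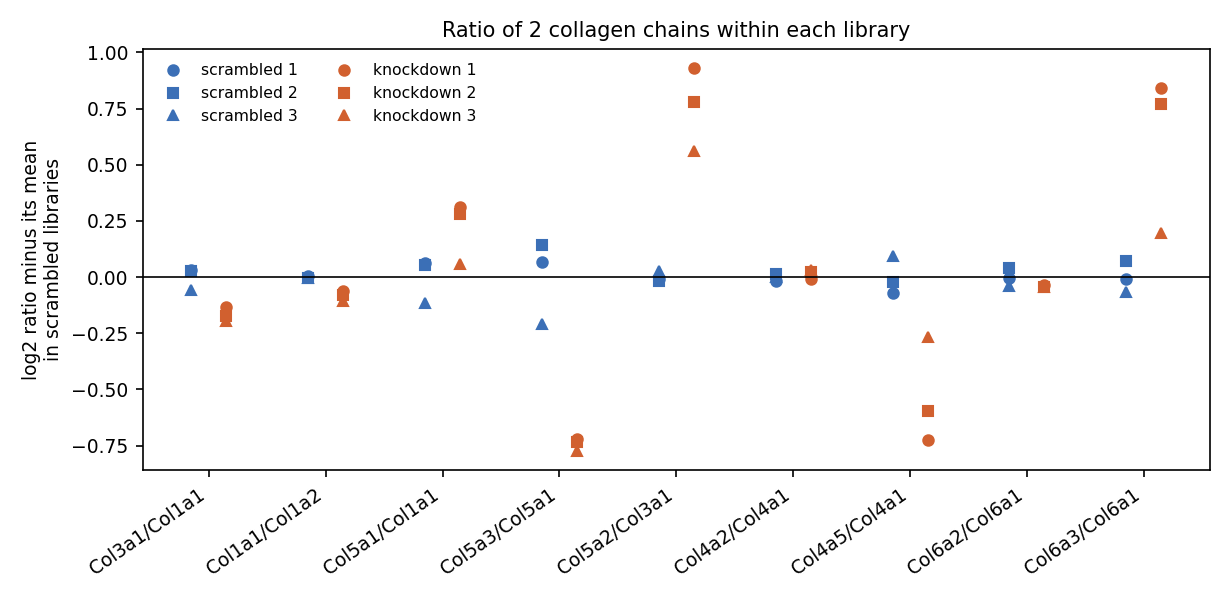
Log2 ratio of 2 chains in each library minus its mean over the scrambled libraries (y axis) for 9 pairs (x axis). Colour gives the group and the symbol the batch. Col5a2/Col3a1 and Col6a3/Col6a1 lie above 0 and Col5a3/Col5a1 and Col4a5/Col4a1 below 0 in every knockdown library, while Col4a2/Col4a1 and Col6a2/Col6a1 stay near 0.

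The other 23 chains were below the level filter. Of these, 15 had both group means under 0.1 FPKM and held between 1 and 49 fragments over all 6 libraries together. They are Col6a5, Col6a6, Col4a4, Col24a1, Col10a1, Col9a1, Col9a3, Col13a1, Col14a1, Col17a1, Col19a1, Col22a1, Col23a1, Col25a1 and Col28a1. Of the 23 chains 17 had a lower and 6 a higher mean in knockdown libraries. The same count was not made over all genes below the filter, so it cannot be read as particular to collagen. Their summed level was 3.22 ± 0.455 FPKM in scrambled and 2.37 ± 0.0338 FPKM in knockdown libraries, a ratio of 0.737, where all 9566 genes below the filter gave 0.785.

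With all genes tested, 5 of the 23 low chains were called lower and 1 higher (limma over 19877 genes), where 7.04% and 1.10% of all genes below the filter were. Those lower were Col4a6, Col6a4, Col6a5, Col11a2 and Col27a1. Col11a2, the second chain of type XI, stood at 0.341, 0.400 and 0.347 FPKM in scrambled and 0.193, 0.234 and 0.204 FPKM in knockdown libraries (limma adjusted p = 0.00870). Col27a1, a fibrillar chain of cartilage, stood at 0.341, 0.357 and 0.448 FPKM and at 0.191, 0.235 and 0.269 FPKM (limma adjusted p = 0.0317). Neither pair of groups overlapped. Of the 23 low chains, the knockdown libraries lay wholly below the scrambled ones in 7 and wholly above in 1. Of all 9566 genes below the filter they lay wholly below in 1335 and wholly above in 310. Col6a4 held 41, 39 and 41 fragments in scrambled and 15, 9 and 14 in knockdown libraries (limma adjusted p = 0.00206), and Col6a5 13, 15 and 10 against 6, 3 and 1 (limma adjusted p = 0.0440).

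Col2a1, the chain of type II collagen and a main product of cartilage cells, was the low chain called higher. It stood at 0.416, 0.222 and 0.349 FPKM in scrambled and 0.880, 1.11 and 0.600 FPKM in knockdown libraries, from 86, 42 and 67 and from 164, 183 and 123 fragments. All knockdown libraries lay above all scrambled ones (log2 fold change 0.71 ± 0.16 SE, limma adjusted p = 0.0260 with all genes tested). Of other cartilage matrix genes, Acan and Matn1 had group means of at most 0.0157 FPKM, and Matn3 stood at 0.247 FPKM in scrambled and 0.201 FPKM in knockdown libraries with overlapping groups. Sox9, a regulator of Col2a1, stood at 7.83 and 8.66 FPKM without passing (limma adjusted p = 0.0892). Col8a2, the partner of Col8a1, went the other way from it: it stood at 0.507, 0.453 and 0.828 FPKM and then at 0.115, 0.117 and 0.374 FPKM, and did not pass (limma adjusted p = 0.0535). Col20a1 stood at 0.333 ± 0.0212 and 0.334 ± 0.00518 FPKM.

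**Figure D5:**
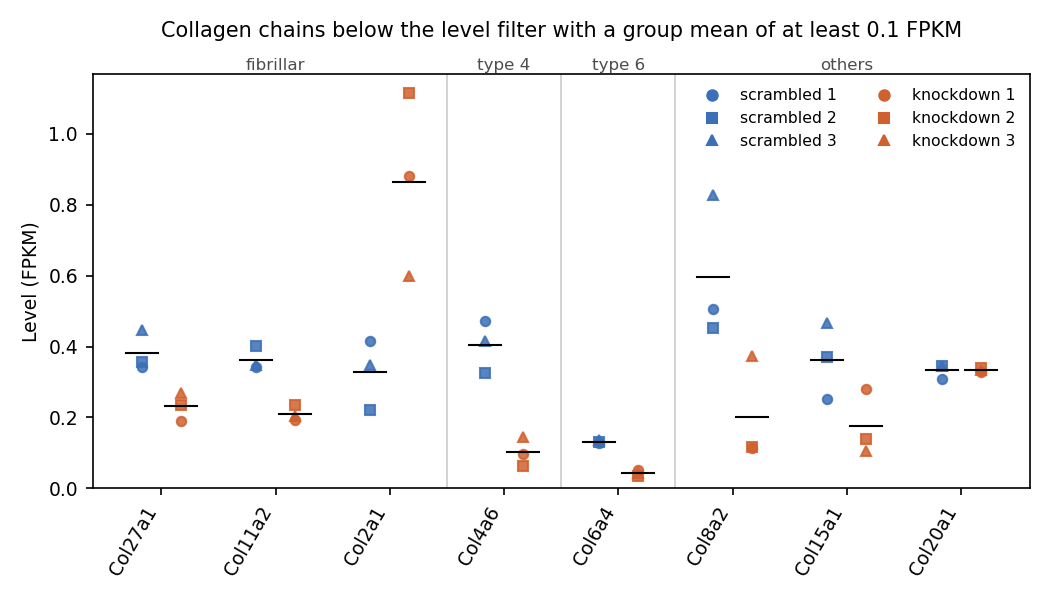
Level in FPKM (y axis, from 0) of the 8 chains below the filter with a group mean of at least 0.1 FPKM (x axis, by class) in each library. Colour gives the group, the symbol the batch and the black line the group mean. Col2a1 lies higher in every knockdown library, and Col4a6, Col6a4, Col11a2, Col27a1 and Col8a2 lie lower in every one.

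Genes that make, modify and bind collagen were counted from 4 lists, to be read against the 31.1% of all tested genes that fell and the 19.8% that rose. Over the 4 lists together 26 genes fell and 5 rose, and over the 17 alternatives the lower count ran from 21 to 28 and the higher count from 2 to 8. The higher count was 2 after rescaling to TPM and 8 after median centring, and it was 2 without any 1 of scrambled libraries 1 and 2 and knockdown libraries 1 and 2. Of 30 tested genes of collagen biosynthesis and processing, 16 fell and 4 rose (median log2 fold change −0.14). The prolyl 4-hydroxylase subunits P4ha2 (−0.59) and P4ha1 (−0.60), which stabilise the helix, and the lysyl oxidase Loxl2 (−0.63), which crosslinks chains, fell. Pcolce2, an enhancer of the removal of the C-propeptide, rose from 2.00 to 5.76 FPKM (1.30), and the protease Tll1 rose from 0.795 to 1.93 FPKM (0.87). Tll1 passed the level filter only through the knockdown libraries, where it is high, so its part in the higher counts of 4 and 5 is no support. Its limma adjusted p was 0.0364 with no filter. The lysyl hydroxylase Plod3 rose by 0.11, a call lost in 10 of 17 alternatives.

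Of 5 tested collagen receptors and uptake genes 3 fell and 1 rose (median −0.47). The integrin chain Itga11, which binds fibrillar collagen, fell from 2.58 ± 0.849 to 0.717 ± 0.181 FPKM (−1.31 ± 0.18 SE, limma adjusted p = 0.000537, and 0.00852 by limma with no filter). It passed the level filter only through the scrambled libraries, where it is high, so its part in the count of 3, and in the 26 of all 4 lists, is no support. The receptor kinase Ddr2 (−0.47) and the endocytic receptor Mrc2 (−0.62) fell, while Itgb1, the common partner of the collagen-binding integrins, stood 0.09 higher, a call lost in 10 of 17 alternatives. All 3 tested collagen-degrading enzymes fell, Ctsk (cathepsin K) by 0.64, Mmp2 by 0.14 and Mmp14 by 0.10. The call of Mmp14 was lost in 6 of 17 alternatives and that of Mmp2 under median centring. Of 6 genes of fibril-bound proteoglycans and organisers 4 fell and 0 rose (median −0.29), among them Thbs2 (−0.58), fibronectin Fn1 (−0.35) and Sparc (−0.24).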

How the data were processed

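The authors deposited 1 table of FPKM values per gene and library. Per the submitters' processing notes the builds GRCm38, mm10 and GRCm39 are named, without a role for each; the aligner and the annotation are not given in the sources. Whole fragments were recovered from the steps of the FPKM values (tolerance 0.002, 19877 of 19877 genes, although 4113 genes are above 0 in only 1 to 3 libraries, where this is no check) and give depths of 32.2 to 40.6 M fragments.

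Levels were tested as log2(FPKM + 0.5) with limma 3.58.1 (R 4.3.3, empirical Bayes with trend) on the 10311 genes at 1 FPKM or more in at least 3 libraries, with Benjamini-Hochberg adjustment and a threshold of 0.05, so fold changes of low genes are understated. Sums and ratios were compared by exact two-sided permutation tests. Alternatives changed the pseudocount, filter, scaling, limma settings and libraries; mgcv 1.9.3 removed a level and length trend.

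Replicate numbers are batch numbers per the labels, so they pair the libraries. Deviations of same-numbered libraries from their group means correlated at 0.0859, 0.0120 and 0.189 in batches 1, 2 and 3. Positions are those of GENCODE M21 on GRCm38, in which all 41 chains were matched by symbol, and upstream sequences those of RefSeq on GRCm38.p6, with 34 of 41 chains matched. The members and gene lists were chosen with earlier results of these data known. Values per library are given for tested chains that changed by at least 0.5 on the log2 scale or had a mean of at least 50 FPKM, for other chains where useful, and for Ifit1; of the other lists, up to 3 called genes of smallest p in each direction are named.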

Additional observations from a re-analysis of the deposited data

How the results depend on the processing

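Over 17 alternatives, 298 of 303 recomputed values of the 18 tested chains kept their direction and side of the threshold. Chains called lower numbered 14 in every alternative except a filter at a mean of 5 FPKM (11 of 15 chains) and no filter (19 of 41). With the level and length trend removed, the log2 fold change was −0.81 for Col11a1, −0.63 for Col18a1 and −0.32 for Col7a1, smaller falls than in the main test. The abundant Col1a1 and Col3a1 then stood at −0.94 and −1.09, larger falls than in the main test. Chains called higher numbered 2 without the filter, Col2a1 being added, and 1 to 3 when single libraries were left out, with 3 only without knockdown replicate 3. The Col4a1 fold change turned to −0.00184 after rescaling to TPM, −0.0120 after quantile normalization and −0.0287 with the level and length trend removed, none past the threshold. The cause was not tested. The log2 difference of the summed level ran from −0.73 to −0.61 without single libraries, and was −0.58 without Col1a1. Of 285 values for Ifit1 and the named list genes, 27 lost their call.

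With batch as a replicate block, 5229 genes were called against 5255 without it, chains stayed at 14 lower and 1 higher, and the summed difference was −0.67. It changed no call of a chain. The paired sign-flip test of 3 batches cannot go below p = 0.25, and all 9 ratios gave that value by this exact test.

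Depth limits what can be said of the 15 chains with 1 to 49 fragments in all. Of these, only Col6a5 passed with no filter. The Wilson intervals of fragment shares cover counting error only, whereas the limma intervals come from the spread between libraries.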
